A study of Mus musculus with 12 samples.

Results

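The proteasome genes were examined in primary mouse hepatocytes with Cebpa deleted or overexpressed. They were taken by symbol, as Psma, Psmb, Psmc, Psmd, Psme, Psmf or Psmg followed by a number, with a mean of at least 1 TPM in any group. TPM is the share of transcripts, scaled for gene length to sum to 1000000. Of 55450 genes in the tables, 54 symbols matched. Of these 54, 4 carried a pseudogene ending, Psmb8 and Psmb9 were left out by name, and Psmb11 stayed under 1 TPM in every group, which left 47 genes. They comprised 16 genes of the 20S core, 17 of the 19S regulatory particle, 7 assembly factors, 4 activators, the inhibitor Psmf1 and 2 genes taken by the symbol alone. The last 2 were Psmc3ip, which encodes a meiotic recombination protein, and Psme2b, a retrogene copy of Psme2. Closest to the limit was Psma8, at 1.08 ± 0.166 TPM (SD, n = 3) in GFP and under 1 TPM in the other groups, whereas Psmb11 lay below it.

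RNA-Seq was performed on poly(A) RNA in 12 libraries, 3 for each of 4 groups. WT hepatocytes were Cebpa fl/fl, and KO hepatocytes were Cebpa{delta}Alb, in which Cre driven by the albumin promoter removes the floxed alleles, a constitutive deletion. GFP and OE hepatocytes received the adenoviruses Ad-GFP and Ad-m-Cebpa (Overexpression). The labels give neither the age of the mice nor the genotype of the cells that received virus. They call the libraries biological replicates without saying that these came from separate mice, so the p values may measure only the spread between preparations. Loss (KO against WT) and gain (OE against GFP) were tested separately, to ask which genes respond to loss or gain of CEBPA, a leucine zipper transcription factor abundant in adult hepatocytes.

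The proteasome is the protease that degrades most ubiquitin-tagged proteins in the cytosol and nucleus. Its barrel, the 20S core, has outer rings of alpha subunits that form a gate and inner rings of beta subunits, of which Psmb5, Psmb6 and Psmb7 encode the constitutive active sites. The 19S regulatory particle binds ubiquitin chains, and its base, built on a ring of ATPases, unfolds the substrate while its lid removes ubiquitin. Interferon replaces the active sites with the immune subunits Psmb8, Psmb9 and Psmb10, and the transcription factor NFE2L1 raises subunit genes when proteasome activity falls.

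Total counts were 20160081 to 23304230 per library. Cebpa, the targeted gene, was measured on the TMM-scaled CPM scale (counts per 1000000). The WT libraries held 486, 365 and 457 CPM of it, against 1.51, 0.393 and 0.261 CPM for KO. It stood at 30.4, 32.2 and 34.4 CPM in GFP and at 8531, 8686 and 8977 CPM in OE. Neither pair of groups overlapped, so the targeted gene fitted the labels in every library. The GFP hepatocytes lay 13.6-fold below WT with TMM scaling, a size that depends on the scaling. The summed level of 8 hepatocyte markers was 163000 to 166400 CPM for WT and 182600 to 215300 CPM for KO. The same sum was 14950 to 15320 CPM in the GFP and 6713 to 7063 CPM in the OE libraries, so both adenovirus groups lay far below WT and KO. Macrophage markers (8 genes) summed to 4.46 to 25.2 CPM for WT and to 13.8 to 50.1 CPM for KO. They summed to 79.0 to 87.5 CPM in GFP and 66.9 to 75.0 CPM in OE, where all but Cd68 were below 1 CPM. Endothelial markers (6 genes) ranged from 17.2 to 29.1 CPM (WT), from 16.6 to 41.5 CPM (KO) and from 14.2 to 18.8 CPM (GFP and OE), and the 7 stellate and fibroblast markers lay below 7.88 CPM in sum in every library. The 5 cholangiocyte markers summed to 10.5 to 16.8 CPM for WT and to 41.3 to 83.7 CPM for KO, most of it Sox9, and to 12.2 to 16.7 CPM over GFP and OE. The 7 lymphocyte and neutrophil markers summed to at most 2.75 CPM in WT, KO and GFP and to 335 to 398 CPM in OE, nearly all from S100a8 and S100a9, while Ptprc, Cd3e and Ly6g were at 0 there. Fewer cells of a type and less RNA per cell cannot be told apart in these bulk libraries.

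The upstream sequence is shown for the 3 genes on which the results below turn most. Psma1 rose most among core subunits in OE, Psmd8 differed most between WT and GFP among the subunits, and Psmd9 was the one member called in KO. On mm10 Psma1 (ENSMUSG00000030751.18) spans chr7:114264606-114276118, Psmd8 (ENSMUSG00000030591.17) chr7:29174188-29180701 and Psmd9 (ENSMUSG00000029440.15) chr5:123169413-123250131, all 3 protein-coding. The RefSeq start of Psmd9 lies inside this longer GENCODE span. The windows hold 250 bases before the gene start (GRCm38.p6, RefSeq), written 5' to 3' on the strand of the gene, with CCAAT boxes and antioxidant response elements in capitals.
Psma1 (chr7:114276117-114276366, minus strand): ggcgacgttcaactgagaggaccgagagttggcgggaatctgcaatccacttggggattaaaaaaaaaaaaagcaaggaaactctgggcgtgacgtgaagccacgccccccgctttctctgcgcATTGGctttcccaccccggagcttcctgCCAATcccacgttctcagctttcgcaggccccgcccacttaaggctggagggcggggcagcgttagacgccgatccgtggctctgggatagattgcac
Psmd8 (chr7:29180674-29180923, minus strand): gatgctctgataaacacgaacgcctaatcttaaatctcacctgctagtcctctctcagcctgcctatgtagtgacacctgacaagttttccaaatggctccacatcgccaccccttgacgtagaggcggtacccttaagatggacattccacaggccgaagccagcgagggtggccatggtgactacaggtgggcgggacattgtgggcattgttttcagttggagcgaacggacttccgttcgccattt
Psmd9 (chr5:123227940-123228189, plus strand): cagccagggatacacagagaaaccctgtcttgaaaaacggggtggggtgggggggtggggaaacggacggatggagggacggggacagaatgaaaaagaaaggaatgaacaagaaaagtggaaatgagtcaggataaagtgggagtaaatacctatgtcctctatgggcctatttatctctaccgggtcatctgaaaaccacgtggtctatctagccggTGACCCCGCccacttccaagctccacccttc
Psma1 held 2 CCAAT boxes, Psmd8 held neither motif, and Psmd9 held an antioxidant response element 31 bases before its start. RefSeq windows were found for 39 of the 47 genes, 42 windows in all, and were searched on both strands. The antioxidant response element TGACNNNGC, a motif bound by NFE2L1 and NFE2L2, was present in 11.9% of member windows and in 10.2% of all 32851 windows. The 5 member genes were Psmb5, Psmb6, Psmc6, Psmd12 and Psmd9. CCAAT was present in 13 of the 42 member windows and in 33.8% of all windows, and TTGCNNAA, the letters of a C/EBP site, in 7.14% (Psma6, Psmb3 and Psmf1) against 9.56%. The GC box GGGCGG was present in 52.4% against 32.7%. Matches to different motifs may overlap, as the antioxidant response element and a GC box do in Psmd9, and a match describes letters only.

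Subunit levels were first compared between genes within each group, on the TPM scale. In WT the 31 constitutive 20S and 19S subunits ran from 30.7 TPM for Psma2, an alpha subunit, to 164 TPM for Psmb6, the caspase-like active site. The median was 104 ± 7.76 TPM for the 14 subunits of the core and 65.3 ± 3.51 TPM for the 17 of the regulatory particle. The ratio of these medians was 1.59 ± 0.0654 in WT, 1.49 ± 0.0553 in KO, 1.56 ± 0.0652 in GFP and 1.42 ± 0.0247 in OE (SD, n = 3 each). In WT the regulatory particle was the more even, with the highest gene 2.19 ± 0.0957 times the lowest against 5.35 ± 0.113 times in the core. In GFP the order turned round, with 7.37 ± 0.258 for the regulatory particle and 4.29 ± 0.159 for the core, and in OE the ratios were 4.32 ± 0.0199 and 6.31 ± 0.255. A single lid gene, Psmd8, set the top of the regulatory particle in GFP and OE. Assembly factors lay lower, at a median of 16.4 ± 0.765 TPM in WT, and Psmf1 stood at 14.2 ± 0.836 TPM.

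The order of the 31 subunits was nearly the same in WT and KO, with Pearson's r of 0.988 on log2 TPM and Spearman's rho of 0.983. It was less alike between GFP and OE (r = 0.738, rho = 0.783), between WT and GFP (r = 0.735, rho = 0.821) and between WT and OE (r = 0.655, rho = 0.718). These correlations are across 31 genes, which are not independent replicates, and the points share gene length and library. Psmb6 was the highest subunit in WT and KO, Psmd8 in GFP and Psma1 in OE, and Psma2 was the lowest in all 4 groups. Psma1 moved from place 14 in GFP to place 1 in OE, Psmc4 from 16 to 4, Psmc3 from 9 to 22 and Psmd1 from 22 to 30.

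**Figure D1:**
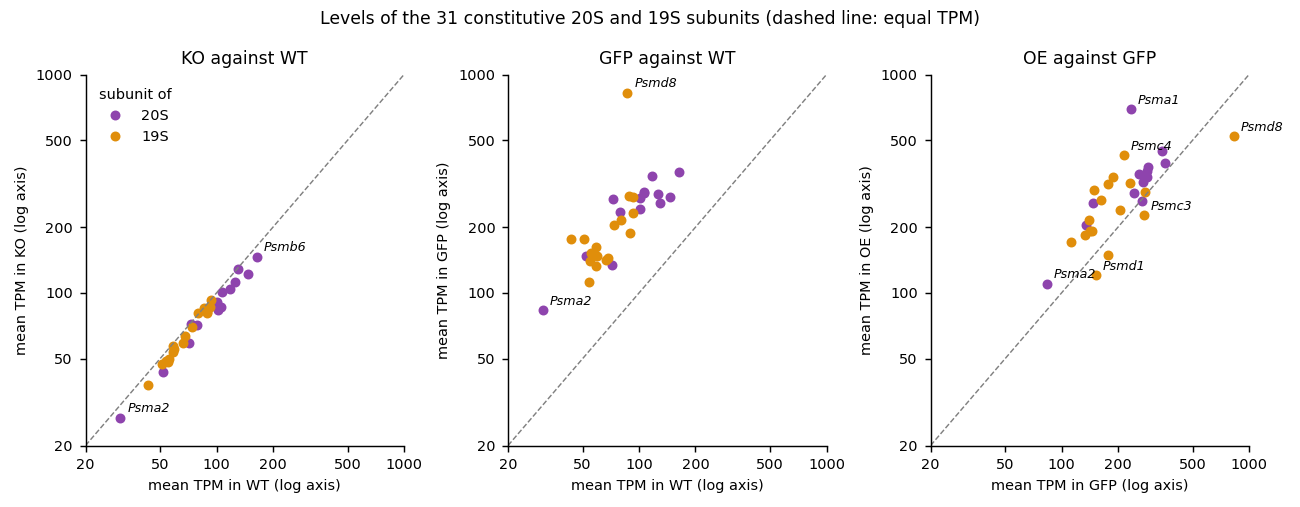
Mean TPM of the 31 constitutive 20S and 19S subunits in one group (x, log axis) against another (y, log axis), with 1 point per gene and a dashed line at equal TPM. WT and KO lie along the line (r = 0.988), all genes lie above it in GFP against WT, and Psma1 and Psmd8 stand away from the others in OE against GFP.

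The 47 genes together took 0.281%, 0.260% and 0.273% of counts in WT and 0.240%, 0.248% and 0.255% in KO. They took 0.641%, 0.658% and 0.652% in GFP and 0.755%, 0.744% and 0.751% in OE. KO lay below WT and OE above GFP in every library, and both adenovirus groups lay more than 2-fold above WT and KO. After TMM scaling over all 12 libraries, which sets the bulk of genes equal, the summed level was 4210 ± 60.0 CPM for WT, 3941 ± 56.8 CPM for KO, 4332 ± 26.3 CPM for GFP and 4567 ± 60.2 CPM for OE. The gap between the adenovirus groups and the others thus depended on the scaling, and the hepatocyte markers above moved with it, in the opposite direction. Their part in it was not tested.

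Loss of Cebpa left almost all proteasome genes uncalled. Of 45 genes tested, edgeR's quasi-likelihood test called 0 higher and 1 lower at an adjusted p under 0.05, against 1.71% of all 11846 genes tested (0.692% higher and 1.02% lower). At an unadjusted p under 0.05 there were 0 higher and 3 lower, Psmd9, Psma7 and Psmb1, against 1644 of all 11846 genes. DESeq2 also called 0 members higher and 1 lower, against 2.33% and 2.93% of all genes. The share called over all genes itself rested on single libraries, with 82 genes higher and 121 lower in all, 15 and 27 without WT1, and 207 and 189 without KO3. KO3 differed more from KO1 and KO2 (chi-square per gene of 127.6 and 122.9) than these did from each other (64.8). Psma8 and Psmc3ip had too few counts to be tested. The median log2 fold change of the 45 was -0.10, against 0.0074 for all genes, and 32 of the 45 were negative. In 15 of 45 genes (33.3%) all 3 KO libraries lay below all 3 WT libraries, against 10.7% of all genes, and in Psmb10 they lay above, against 9.04%. Both directions together came to 16 of 45 genes, against 19.8% of all genes.

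The called gene was Psmd9, which encodes a PDZ-domain chaperone that holds ATPases during assembly of the 19S base. Psmd9 measured 46.4, 47.6 and 48.3 CPM for WT and 34.6, 28.2 and 30.5 CPM for KO. The libraries did not overlap, and the log2 fold change was -0.59 ± 0.0993 (SE, adjusted p = 0.0379 by edgeR, n = 3 each). The call rested on single libraries. Without WT1, WT2, WT3, KO2 or KO3 the adjusted p was 0.157, 0.152, 0.135, 0.0938 and 0.0544, and without KO1 it was 0.0429. The other chaperones of the base did not pass. Psmd5 measured 51.5, 54.3 and 50.4 CPM for WT and 49.98, 46.8 and 46.7 CPM for KO, and Psmd10, also known as gankyrin, measured 8.999, 9.98 and 10.8 CPM and 9.54, 17.3 and 13.0 CPM, with log2 fold changes of -0.11 ± 0.083 and 0.44 ± 0.231. An exon of Psmd9 overlaps an antisense transcript, Gm26745, and the strand setting of the counting is not given in the sources used here.

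Among the alpha subunits, which form the gate of the core, 5 of 7 tested genes lay lower in every KO library than in every WT library, and 0 of 7 passed. Psma7 had the lowest p of these. It measured 91.3, 85.1 and 83.6 CPM for WT and 67.7, 76.4 and 72.7 CPM for KO, a log2 fold change of -0.25 ± 0.0943 (adjusted p = 0.31). Psma3 (-0.24 ± 0.114) and Psma6 (-0.24 ± 0.107) were similar in size, and Psma4 was the one of the 7 that was not negative, at 0.01 ± 0.085. The non-catalytic beta subunit Psmb1 measured 136, 130 and 127 CPM for WT and 103, 107 and 120 CPM for KO, also without overlap, with an adjusted p of 0.327 by edgeR. With 1 dispersion estimated over all 12 libraries, Psma6, Psma7, Psmb1 and Psmd9 were called lower, with adjusted p of 0.0487, 0.0263, 0.0359 and 0.00055. That fit also called more of all genes, 4.03% lower against 1.02%.

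The 3 constitutive active sites all had negative values in KO, and none passed. Psmb5, the chymotrypsin-like site, measured 100.3, 92.4 and 98.0 CPM for WT and 82.2, 86.2 and 94.2 CPM for KO. Psmb6 measured 115, 115 and 111 CPM for WT and 92.9, 108 and 108 CPM for KO, the one of the 3 without overlap. Psmb7, the trypsin-like site, stood at 137, 146 and 146 CPM and at 138, 122 and 131 CPM. Their log2 fold changes were -0.13 ± 0.0914, -0.12 ± 0.0989 and -0.12 ± 0.0877. In the regulatory particle 0 of 17 genes passed, the values ran from -0.15 for the deubiquitinase Psmd14 to 0.07 for the ATPase Psmc3, and 5 of 17 lay below WT without overlap.

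Among the core assembly factors, the activators and the inhibitor, Psmg4 had the value farthest from 0. Psmg4, a small assembly chaperone, measured 3.24, 4.79 and 4.24 CPM for WT and 2.499, 3.22 and 3.19 CPM for KO, which did not overlap, with a log2 fold change of -0.44 ± 0.236. Psmg1, Psmg2 and Psmg3 lay between -0.09 and 0.10, Psme1 to Psme4 between -0.12 and 0.08, and Psmf1 at -0.04 ± 0.0953. The groups overlapped in all 8 of these.

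**Figure D2:**
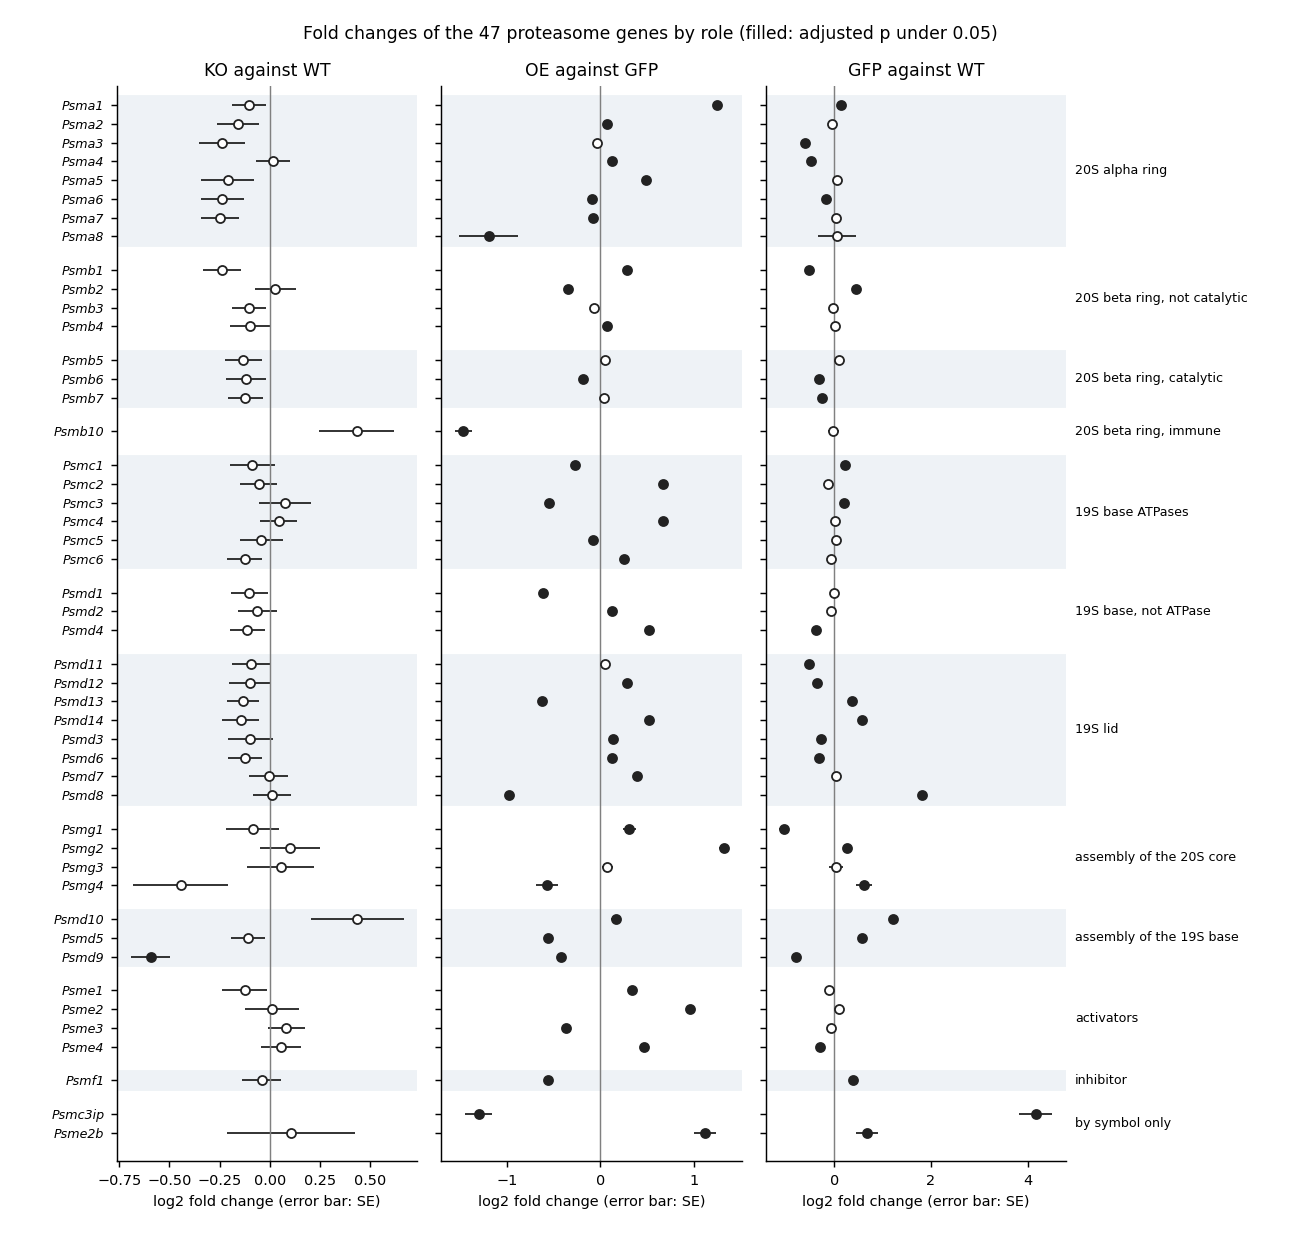
Log2 fold change of each proteasome gene (rows, grouped by role) in KO against WT, OE against GFP and GFP against WT (panels, each with its own x scale), with the SE as error bar and filled points for an adjusted p under 0.05. A single gene, Psmd9, is filled in KO against WT, 41 are filled in OE against GFP and 28 in GFP against WT.

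With Cebpa overexpressed, proteasome genes were called in both directions, as were genes at large. Of 47 genes, 23 rose and 18 fell in OE against GFP and 6 did not pass, against 86.6% of all 14889 genes called, 43.9% higher and 42.7% lower. Past 1.5-fold were 6 rises and 6 falls, or 25.5% of the genes, against 61.0% of all genes (32% higher and 29% lower). The OE and GFP libraries did not overlap in 40 of the 47 genes, against 86.9% of all genes. The median log2 fold change was 0.07, against 0.0053 for all genes. The split of calls depended on the scaling, in part together with all genes. It was 28 higher and 14 lower with library totals (all genes 48.2% and 38.1%) and 26 and 13 with a stricter filter on low counts (45.0% and 45.3%). It was 33 and 8 with limma on log2(TPM + 1) (51.3% and 29.6%) and 31 and 12 after removal of the relation between fold change and length (43.9% and 41.7%). The genes are short, with a median effective length of 1173 bases against 2165 for all genes tested. Library totals, limma on log2(TPM + 1) and the length correction moved the median of the members up, to 0.21, 0.40 and 0.31. The median of all genes under these settings was 0.145, 0.27 and 0.029. With at least 1 of these settings, 6 of the 18 falls (Psma6, Psma7, Psmb2, Psmb6, Psmc1 and Psmc5) took the other direction. Psmd9, the one member called in KO against WT, was also called lower in OE against GFP, a call that limma on TPM did not give. Calls in opposite directions were not possible for any other member.

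In the alpha ring the rise of Psma1 stood apart. Psma1 was at 102, 104 and 101 CPM in GFP and at 247, 243 and 244 CPM in OE, a log2 fold change of 1.25 ± 0.0273 (adjusted p = 9.42e-15 by edgeR). On the TPM scale it went from 234 ± 3.14 to 693 ± 6.86. Relative to the median of the other 6 constitutive alpha subunits in the same library, Psma1 was 0.762 ± 0.0541 in WT, 0.841 ± 0.0543 in KO, 0.932 ± 0.00525 in GFP and 2.23 ± 0.0607 in OE, a ratio that does not depend on the scaling of libraries. Psma5 also rose (0.49 ± 0.0296), and Psma2 and Psma4 rose by less than 0.13 on the log2 scale. Psma6 and Psma7 fell by 0.08 and 0.07, values that turned positive with library totals, and Psma3 did not pass. Psma8, a testis subunit, had 19 to 27 counts in GFP and 7 to 15 in OE. It entered the set only through its GFP level, so its place among the 18 falls is a description.

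In the beta ring the constitutive active sites moved little in the edgeR fit with TMM scaling. Psmb5 stood at 102, 107 and 107 CPM in GFP and 112, 112 and 107 CPM in OE (adjusted p = 0.109), and Psmb7 at 122, 119 and 122 CPM and 128, 125 and 122 CPM (adjusted p = 0.263). Of 16 alternatives, 7 called Psmb5 higher and 5 called Psmb7 higher, with log2 fold changes up to 0.48 and 0.35. Psmb6 went from 92.7, 91.4 and 93.7 CPM to 84.2, 79.5 and 82.1 CPM and fell by 0.19 ± 0.029. The fall of Psmb6 turned to a rise of 0.28 once the length trend was removed. Among the structural beta subunits, Psmb1 rose by 0.28 ± 0.0278 and Psmb4 by 0.08 ± 0.0262, Psmb2 fell by 0.34 ± 0.0304, and Psmb3 did not pass.

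The 6 ATPases of the base, which form one ring, all passed, 3 in each direction. Psmc2 went from 103, 102 and 103 CPM in GFP to 169, 159 and 167 CPM in OE and Psmc4 from 109, 116 and 111 CPM to 183, 176 and 178 CPM, log2 fold changes of 0.67 ± 0.0292 and 0.67 ± 0.0302. Psmc3 went the other way, from 151, 164 and 157 CPM to 110, 109 and 107 CPM, a fall of 0.54 ± 0.0325. The ratio of Psmc3 to Psmc4 within a library was 1.17 ± 0.0614 in WT, 1.14 ± 0.154 in KO, 1.27 ± 0.0213 in GFP and 0.533 ± 0.0132 in OE, so the OE libraries alone had more Psmc4 than Psmc3 per length. Psmc6 rose by 0.25, and Psmc1 and Psmc5 fell by 0.27 and 0.08, falls that changed direction under limma on TPM. An exon of Psmc3 overlaps the antisense gene Slc39a13.

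The 3 other genes of the base encode the ubiquitin receptor Psmd4 and the scaffolds Psmd1 and Psmd2. Psmd1 fell, from 181, 184 and 181 CPM to 123, 123 and 115 CPM (-0.61 ± 0.031), while Psmd4 rose from 90.3, 91.1 and 89.7 CPM to 135, 127 and 129 CPM (0.52 ± 0.0292). Psmd2, the scaffold partner of Psmd1, rose by 0.13 ± 0.0275. Psmd1 shares exon sequence with Gm21972 on the same strand, and reads there may have been split between them.

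In the lid 5 of 8 genes rose, 2 fell and Psmd11 did not pass. Psmd8 stood at 425, 418 and 431 CPM in GFP and at 222, 221 and 208 CPM in OE, a fall of 0.98 ± 0.032, and in OE it still lay above the 114 to 126 CPM of WT and KO. Psmd13 fell from 95.1, 95.6 and 96.7 CPM to 63.3, 63.5 and 61.7 CPM (-0.62 ± 0.0273). Psmd14, the deubiquitinase of the lid, rose from 103, 98.2 and 97.8 CPM to 146, 142 and 142 CPM (0.52 ± 0.0294), and Psmd7, its partner in the same dimer, rose by 0.39 ± 0.0329. Relative to the median of the other 7 lid subunits, Psmd14 was 0.728 ± 0.0244 in WT, 0.664 ± 0.0309 in KO, 1.2 ± 0.0297 in GFP and 1.68 ± 0.00966 in OE. The remaining 3 lid genes, Psmd3, Psmd6 and Psmd12, rose by 0.12 to 0.28.

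**Figure D3:**
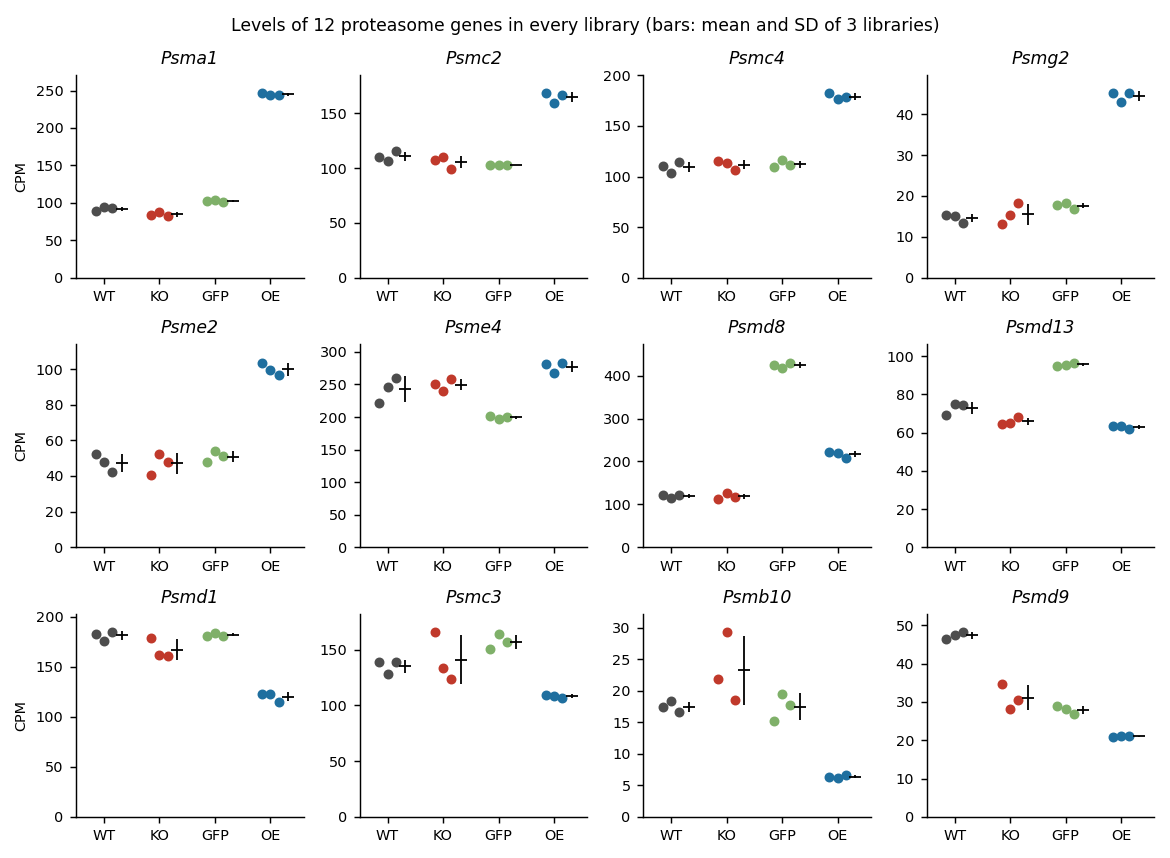
CPM of 12 proteasome genes in each library (points, 3 per group) with the mean and SD beside them, on axes that start at 0. Psma1, Psmc2, Psmc4, Psmg2, Psme2 and Psme4 lie higher in all 3 OE than in all 3 GFP libraries, and the other 6 genes lie lower. Psmd8 is highest in GFP, and Psmd9 is the one gene of the 12 called lower in both comparisons.

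The assembly factors also diverged. Psmg2, which with Psmg1 forms a heterodimer that builds the alpha ring, rose from 17.9, 18.2 and 16.9 CPM in GFP to 45.2, 43.0 and 45.2 CPM in OE, a log2 fold change of 1.32 ± 0.0458 (adjusted p = 1.39e-12). Psmg1 rose less, from 10.2, 9.93 and 9.98 CPM to 12.2, 13.6 and 11.8 CPM (0.31 ± 0.0703). The ratio of Psmg2 to Psmg1 on the TPM scale was 0.697 ± 0.0138 in WT, 0.809 ± 0.0535 in KO, 1.72 ± 0.0659 in GFP and 3.50 ± 0.337 in OE. The pair Psmg3 and Psmg4, which acts on the same ring, was not called higher in the edgeR fit with TMM scaling. Psmg3 stood at 15.5, 16.1 and 14.5 CPM and 16.9, 15.8 and 16.3 CPM (adjusted p = 0.24), and Psmg4 fell from 5.92, 6.04 and 7.18 CPM to 4.40, 4.89 and 3.69 CPM (-0.57 ± 0.119). Both results depended on the scaling. Psmg3 was called higher with library totals (0.22), with limma on log2(TPM + 1) (0.40) and with the length trend removed (0.51). The fall of Psmg4 was -0.26 with limma on log2(TPM + 1) and -0.02 without the length trend, and did not pass with either. Psmg3 overlaps Gm26938 on the same strand.

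Of the chaperones of the 19S base, Psmd5 fell from 79.2, 79.8 and 76.8 CPM to 55.3, 54.1 and 52.3 CPM (-0.55 ± 0.0312). Psmd9 fell from 28.8, 28.1 and 26.8 CPM to 20.9, 21.1 and 21.2 CPM (-0.42 ± 0.0471). With limma on log2(TPM + 1) and log2(TPM + 0.1) the fall of Psmd9 was -0.15 and did not pass (adjusted p = 0.0527 and 0.0529). Psmd10 rose from 23.04, 23.4 and 23.8 CPM to 27.4, 24.3 and 27.7 CPM (0.17 ± 0.0548), a call that 2 of 16 alternatives did not give. The 3 libraries of each group did not overlap for any of the 3 genes.

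The activators bind the ends of the core in place of the 19S particle. Psme1 and Psme2 encode the 2 subunits of the interferon-induced ring PA28, Psme3 its nuclear relative and Psme4 the large activator PA200. Psme2 rose from 48.0, 53.8 and 51.0 CPM in GFP to 104, 99.5 and 96.7 CPM in OE (0.96 ± 0.0389). Its partner Psme1 rose by less, from 69.2, 65.1 and 63.9 CPM to 87.8, 81.4 and 83.4 CPM (0.34 ± 0.0363). The ratio of Psme2 to Psme1 was 0.999 ± 0.0884 in GFP and 1.49 ± 0.10 in OE, and 0.863 ± 0.0518 in WT and 0.934 ± 0.16 in KO. Psme4 rose from 202, 197 and 200 CPM to 281, 267 and 284 CPM (0.46 ± 0.0303), and Psme3 fell from 92.2, 93.3 and 94.5 CPM to 73.4, 73.2 and 71.8 CPM (-0.37 ± 0.0271). The rise of Psme4 did not pass without the length trend (0.055), and the fall of Psme3 did not pass with limma on log2(TPM + 1) (-0.015). The inhibitor Psmf1, known as PI31, fell from 43.0, 45.1 and 48.0 CPM to 31.5, 30.7 and 30.8 CPM (-0.56 ± 0.0446). Psme2b, the copy of Psme2, held 82 to 120 counts in GFP and 236 to 271 in OE and rose by 1.12 ± 0.119, and reads of the parent and the copy may have been exchanged. Psmc3ip held 109 to 110 counts in GFP and 44 to 59 in OE and fell by 1.30 ± 0.145.

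Psmb10, the immune counterpart of Psmb7, had the largest fall of the 47 genes in the edgeR fit of OE against GFP. It stood at 17.3, 18.3 and 16.6 CPM for WT, 21.9, 29.3 and 18.6 CPM in KO, 15.1, 19.4 and 17.8 CPM in GFP and 6.38, 6.09 and 6.68 CPM in OE. The fall against GFP was 1.46 ± 0.09 on the log2 scale (adjusted p = 1.06e-09 by edgeR) and the groups did not overlap. KO lay above WT in every library, at 0.43 ± 0.185, but did not pass (adjusted p = 0.362), and the value was 0.22 without KO2 and 0.58 without KO3. KO2, the highest, and KO3, the lowest, were also the highest and the lowest KO library in macrophage markers, at 50.1 and 13.8 CPM. The part of these markers in the difference was not tested. Psmb10 was 12.5 ± 1.62% of the sum of Psmb7 and Psmb10 (TPM) in WT, 18.6 ± 4.43% in KO, 16.1 ± 1.5% in GFP and 5.94 ± 0.32% in OE.

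The other immune subunits lay outside the rule. Psmb8 was 14.9 ± 0.488% of Psmb5 and Psmb8 in WT, 20.1 ± 3.41% in KO, 17.0 ± 1.05% in GFP and 13.8 ± 0.655% in OE. Psmb9 was 2.82 ± 0.139% of Psmb6 and Psmb9 in WT, 4.10 ± 1.57% in KO, 7.57 ± 0.615% in GFP and 8.81 ± 0.323% in OE. In OE against GFP Psmb8 fell by 0.31 (adjusted p = 0.000382) and Psmb9 was at 0.13 (adjusted p = 0.129). In KO against WT neither passed, at 0.38 and 0.28 (adjusted p = 0.353 and 0.725, edgeR). An exon of Psmb9 overlaps Tap1 on the other strand.

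**Figure D4:**
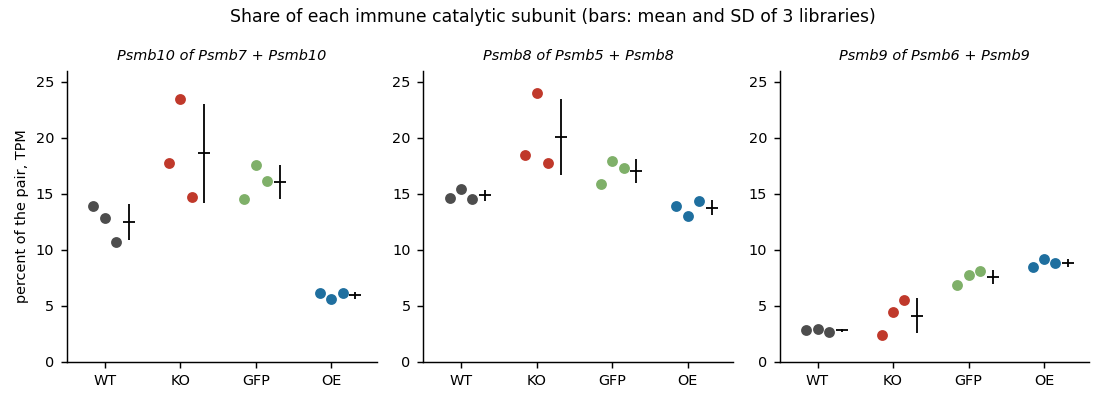
Share of each immune catalytic subunit in the sum with its constitutive counterpart (percent of TPM, y) for each library (points) in 4 groups, with the mean and SD. The Psmb10 share is lowest in OE, at 5.58% to 6.16%, and the Psmb9 share is higher in GFP and OE (6.89% to 9.14%) than in WT and KO (2.40% to 5.495%).

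GFP and WT differ in virus and possibly in culture and strain, which cannot be told apart, and were compared only to place the 2 experiments on one scale. Of 47 genes, 14 were called higher and 14 lower, against 83.3% of all 13760 genes (45.0% and 38.4%). Of the 47, 6 were higher and 3 lower past 1.5-fold (19.1%), against 66.1% of all genes (35.8% and 30.3%). The libraries did not overlap in 30 of 47 genes, against 85.4% of all genes. These directions are relative to the bulk of genes. With library totals the median of all genes was 1.37. Under that setting 46 members were higher and 0 lower (all genes 75.7% and 15.1%), and all 14 members called lower took the other direction. Within the complex, Psmd8 went from 122, 114 and 121 CPM (WT) to 425, 418 and 431 CPM (GFP), a rise of 1.82 ± 0.0573 on the log2 scale, and on the TPM scale at 86.2 ± 6.26 and 827 ± 13.2. Relative to the median of the other 7 lid genes, Psmd8 was 1.48 ± 0.0444 in WT, 1.64 ± 0.152 in KO, 5.63 ± 0.142 in GFP and 2.76 ± 0.0955 in OE. Psmd10 rose by 1.22 ± 0.0848, from 8.999 to 10.8 CPM in WT to 23.04 to 23.8 CPM in GFP. Psmc3ip rose from 1 to 5 counts in WT to 109 to 110 counts in GFP. It entered the set only through its GFP and OE levels, so its place among the genes called higher in GFP is a description. The lowest values were those of Psmg1 (-1.05 ± 0.0864) and Psmd9 (-0.78 ± 0.0552), both positive with library totals and with limma on TPM.

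The 2 effects were also added, as OE against GFP plus KO against WT, a sum that is 0 where gain and loss of Cebpa move a gene by equal and opposite amounts. The sum passed in 26 of 47 genes, 11 higher and 15 lower, against 55.1% of all 15326 genes. It was 1.14 ± 0.0761 for Psma1, 1.42 ± 0.151 for Psmg2 and 0.97 ± 0.14 for Psme2, each of which rose in OE and lay between -0.10 and 0.10 in KO, so the sum mostly restates the OE effect. It was -1.01 ± 0.106 for Psmd9 and -1.04 ± 0.213 for Psmb10. This fit shares 1 dispersion per gene, with a biological coefficient of variation of 13.9%. In separate fits it was 20.4% for KO and WT but 4.04% for GFP and OE, so the joint fit may understate the spread of KO and WT.

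Genes that work with the proteasome were read from 7 lists. In KO against WT edgeR called 0 of 62 genes tested (1.71% of all genes), with 6 at an unadjusted p under 0.05, and DESeq2 called 2 higher and 2 lower (2.33% and 2.93% of all genes). In OE against GFP 28 of 63 were higher and 27 lower, close to the 43.9% and 42.7% of all genes, and the counts of single lists below are descriptions against those shares. Among subunits and assembly factors outside the rule, 3 of 6 rose and 2 fell: Akirin2, which brings proteasomes into the nucleus, by 1.2, Sem1, a small lid subunit, by 0.98, and Pomp, the maturation factor of the core, fell by 0.51. Pomp stood at 104, 103 and 92.5 CPM in WT, 67.2, 77.4 and 75.2 CPM in KO, 67.0, 67.2 and 65.5 CPM in GFP and 46.4, 48.0 and 46.8 CPM in OE. KO lay below WT in every library without passing (-0.43, adjusted p = 0.113), as OE lay below GFP.

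Among transcription factors of subunit genes, 5 of 7 rose in OE and 1 fell. Nfe2l1 rose from 145, 146 and 144 CPM to 239, 244 and 233 CPM (0.71) and Nfe2l2 from 157, 159 and 164 CPM to 354, 357 and 344 CPM (1.12), and Bach1, a repressor that competes for the same motif, rose by 2.08. In KO they were at 0.26, 0.24 and -0.51 and did not pass. Of the 5 members with the antioxidant response element, Psmc6 and Psmd12 rose in OE, Psmd9 fell and Psmb5 did not pass, although 7 of 16 alternatives called it higher. Psmb6 fell, but did not pass with library totals (-0.05, adjusted p = 0.143) and was higher under limma on TPM and with the length trend removed. Among receptors and enzymes bound to the proteasome 6 of 13 rose and 7 fell, with Zfand5 at 1.72 and Zfand2a at -1.42. In the list of the unfoldase p97, 5 of 9 rose and 4 fell, led by its cofactor Nsfl1c at 1.47. Of the enzymes that activate ubiquitin, Uba6 rose by 2.42 and Uba1 fell by 1.02.

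In the heat shock list 4 of 10 rose and 5 fell, led by the small chaperone Hspb1 at -2.42. In the interferon list 4 of 14 rose and 6 fell, among them Gbp2 at 3.6, Tapbp at -1.16 and B2m at -1.26. The values of the interferon list ran from -2.19 to 3.6. The 8 genes of the CCT chaperonin, another multi-subunit ring, served as a compared complex. Of these, 3 rose and 5 fell in OE, from -0.44 for Tcp1 to 0.74 for Cct8, and in KO the 8 lay between -0.16 and 0.10. The 31 constitutive proteasome subunits, a larger set, lay between -0.98 and 1.25 in OE.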

How the data were processed

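Per the labels, the authors prepared poly(A) RNA with a stranded mRNA kit, and their processing notes name Trimmomatic 0.36, STAR 2.5.1, RSEM 1.2.22, Picard 1.84, DESeq2 and build mm10. The deposited files hold RSEM expected counts, not scaled, and TPM, scaled by the authors for effective length to sum to 1000000. The strand setting is not given in the sources used here. Besides the overlaps named above, exons of Psmd13 (Sirt3), Psmb7 (Nek6), Psme1 (Emc9) and Psmc3ip (Mlx) overlap a gene on the other strand. The same holds for Psma4, Psma5, Psmd3 and Psmb8. On the same strand, Psmb5 overlaps Mir686 and Psme2b overlaps 9930111J21Rik1. Coordinates are from GENCODE M21, which held all 55450 identifiers.

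Expected counts were rounded, filtered (filterByExpr, minimum 10, total 15), scaled by TMM and tested by the edgeR 4.0.16 quasi-likelihood test in R 4.3.3, p values being adjusted by Benjamini-Hochberg across every gene tested, with a threshold of 0.05. KO and WT, OE and GFP, and GFP and WT were each fitted on their 6 libraries, and the sum of effects on all 12. The SE is the fold change over the root of F. CPM were scaled over all 12 libraries. Every member could be named, with library values for catalytic, assembly, activator and inhibitor genes and for the 5 lowest p per direction, and up to 3 genes per pathway list plus Nfe2l1, Nfe2l2 and Pomp. Further members were named after their values were seen. The members and lists were chosen with earlier results of these data known. Alternatives were RLE size factors, totals alone, testing without a filter, a stricter one (mean of 5 CPM, and 1 CPM reached by 3 libraries), DESeq2 1.42.0, limma 3.58.1 on log2(TPM + 1) and log2(TPM + 0.1), removal of a length trend (lowess, span 0.3), a replicate block, a fit of all 12 libraries, and each library left out. The code was tested on simulated data. No 2 libraries were identical, and none was left out. The result of 1 gene of the pathway lists is not reported here. Counting intervals are not given, since reads are not independent molecules.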

Additional observations from a re-analysis of the deposited data

Results flagged for a closer look

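The sum of the 2 effects passed in 26 of 47 members, against 55.1% of all genes, a share near that background. For the 12 members looked at singly (edgeR, 12 libraries, adjusted p from 2.39e-07 to 0.00994), 10 had been chosen for their low p in OE against GFP and were not called in KO, so their sum mostly restates the OE effect and is given as a description. Genes higher in sum were Psmg2 (1.42 ± 0.151), Psma1 (1.14 ± 0.0761), Psme2 (0.97 ± 0.14), Psmc4 (0.71 ± 0.0848) and Psmc2 (0.61 ± 0.0833), on the log2 scale with the SE. Genes lower in sum were Psmb10 (-1.04 ± 0.213), Psmd9 (-1.01 ± 0.106), Psmd8 (-0.97 ± 0.0882), Psmd13 (-0.76 ± 0.0749), Psmd1 (-0.71 ± 0.087), Psmd5 (-0.67 ± 0.079) and Psmc3 (-0.47 ± 0.134). The sum of Psmc3 was -0.28 with limma at either pseudocount and without the length trend, and did not pass under any of these settings. No result in groups of 3 was tested for a library far from the others.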

How the results depend on the processing

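In KO against WT the count of members called lower was 0 with limma on log2(TPM + 1), with limma on log2(TPM + 0.1) and with the replicate block. Of all genes, 0.738%, 0.673% and 0.473% were lower under these settings. The count was 4 in the fit of all 12 libraries (4.03% of all genes). With a library left out it was 0 to 1 (0.222% to 1.56% of all genes). The median log2 fold change of the members was -0.15 with library totals. In OE against GFP the count lower was 8 with limma at either pseudocount (29.6% and 29.5% of all genes). The median of the members was 0.21 with library totals, 0.12 with the stricter filter and 0.31 with the length trend removed. In GFP against WT 46 members were higher with library totals and with limma at either pseudocount, and 0 lower. Of all genes, 75.7%, 77.7% and 77.4% were higher under these settings, and 15.1%, 12.9% and 12.8% lower. Without the length trend the counts were 23 and 9, against 47.9% and 35.7% of all genes. The median of the members there was 1.25 with library totals, 0.11 with no filter and 0.20 without the length trend. It was -0.0375 to 0.0385 with a library left out. For the sum of effects, limma at either pseudocount called 24 members higher and 9 lower. Of all genes it called 40.9% and 38.2% higher and 24.3% and 22.4% lower. The length correction called 21 and 8 members, against 26.8% and 26.1% of all genes. The median of the members was 0.0397 with library totals, 0.00787 with the stricter filter and 0.18 without the length trend. It was -0.10 to -0.0406 with a library left out.

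Psmb6 in OE against GFP reversed to 0.13 with limma at either pseudocount and to 0.28 without the length trend. In GFP against WT, Psmg1 reversed to 0.19 with library totals and to 0.38 and 0.39 with limma, and Psmd9 to 0.46, 0.65 and 0.67. The cause was not tested. Whether libraries with the same replicate number were paired cannot be decided from 3 libraries per group. Deviations of WT and KO libraries with the same number correlated at 0.00236, -0.0319 and -0.277, and those with different numbers at -0.159 to 0.166. For GFP and OE the values were -0.0481, 0.0462 and -0.0547 with the same number and -0.0807 to 0.119 with different numbers. With the replicate block 23 members were higher and 18 lower in OE against GFP, and Psmd9 in KO had an adjusted p of 0.152. Low counts limit Psma8, Psmc3ip and Psme2b.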
